A study of Mus musculus with 6 samples.

Results

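Genes that carry cells through mitosis were examined in cultured neural stem cells and progenitors of adult mice with and without active SIRT1. A list of 36 genes of the mitotic cyclins and kinases, the kinetochore, the spindle and cytokinesis was taken by gene symbol. Each gene was read from 1 probe set, the one with the highest mean over the arrays among those that the platform annotation pairs with that gene only. This gave values for 35 of the 36 genes, among 19937 genes so measured. Ccnb1, which encodes cyclin B1, had no probe set paired with it in the annotation used and was not analysed here.

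The 3 Sirt1 inactive cultures came from NestinCre;Sirt1lox/lox mice and the 3 control cultures from Sirt1lox/lox mice, all of strain 129SV and 8 weeks old. The Nestin promoter drives Cre in neural stem and progenitor cells, where Cre excises the floxed Sirt1 sequence. Control mice have the same floxed alleles without the transgene, and what Cre alone does cannot be told apart from Sirt1 loss. Cells of both genotypes were expanded as neurospheres in EGF and bFGF, plated at the same density and collected while they proliferated, at passage 2. The titles call the samples biological replicates without saying how many mice stand behind each.

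Sirt1 itself, which encodes an NAD-dependent deacetylase, read 8.26, 8.33 and 8.25 in the Sirt1 inactive cultures and 8.73, 8.78 and 8.55 in the controls, as log2 RMA values. The groups did not overlap, and the difference of -0.41 (SE 0.076, 0.755-fold) did not pass the threshold (limma, unadjusted p = 0.00101, adjusted p = 0.959). The stem cell genes Nes and Sox2, chosen after their values were seen, read 11.57 to 11.68 and 11.60 to 11.65 in the Sirt1 inactive cultures. In the controls they read 11.55 to 11.70 and 11.62 to 11.78. Of 7 measured stem cell markers, 3 had a difference below 0, Nes and Sox2 among them. The other 4 were above 0, up to 0.18 for Nr2e1, where 39.9% of all tested probe sets were above 0. All 35 mitosis genes lay above the array median on every array (medians 7.36 to 7.39), and 29 lay above the upper quartile on every array (9.11 to 9.17). Brightness depends on the probes as well as on the RNA, so these values do not rank the genes by abundance.

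Mitosis begins when CDK1, bound to its A- and B-type cyclins, phosphorylates its targets. Polo-like and Aurora kinases then build the spindle, kinetochores tie chromosomes to its microtubules, and a checkpoint holds the anaphase-promoting complex in check until all chromosomes are attached. Most of these transcripts are made in G2 and M phase and drop on exit from the cell cycle, so in a culture they are widely read as a sign of dividing cells. In a bulk culture, fewer dividing cells and less RNA per dividing cell cannot be told apart.

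The mitosis genes were nearly level between the genotypes. Their differences, Sirt1 inactive minus control, lay between -0.078 (Aurkb) and 0.16 (Hmmr) on the log2 scale, and 32 of 35 were under 0.1 in size, which is a fold of 1.07. None of the 35 passed the threshold of 0.05 (adjusted p by limma between 0.959 and 0.999), and neither did any of the 22961 probe sets tested (0%). At an unadjusted p under 0.05 there was 1 gene, Hmmr, higher in the Sirt1 inactive cultures, where 0.984% of all tested probe sets were called higher, 2.63% lower and 3.61% either way. That count was 0 without Sirt1 inactive replicate 2, control replicate 1 or control replicate 3. In these fits 1.99%, 6.33% and 2.81% of all tested probe sets had such a p. Without Sirt1 inactive replicate 1 the count was 1 gene, Nuf2 and not Hmmr (3.56% of all tested probe sets). It was Hmmr alone without Sirt1 inactive replicate 3 (2.70%) and without control replicate 2 (4.88%). The 95% intervals hold for each gene by itself, are not adjusted for the number of genes, and do not bound the 35 genes jointly. Over the 35 genes they reached no lower than -0.26 (0.833-fold, Cdca8) and no higher than 0.32 (1.25-fold, Kif23), and 34 of them held 0.

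Of the 35 genes, 22 had a difference above 0 and 13 below, where 39.9% of all tested probe sets were above 0 and 60.1% below. The median difference was 0.020 for the mitosis genes and -0.022 for all tested probe sets. With array medians subtracted, 27 of 35 were above 0, beside 51.1% of all tested probe sets, and the medians were 0.045 and 0.0022. Single cultures moved this count. It was 14 of 35 without control replicate 1, with a median of -0.037, beside 39.1% of all tested probe sets. Without Sirt1 inactive replicate 2 it was 16 of 35, with a median of -0.0065, beside 39.2%. Control replicate 3 had the largest median distance from the mean of the arrays (0.097 over all tested probe sets, 0.049 to 0.074 on the others). Without that array 31 of 35 were above 0, beside 46.3% of all tested probe sets.

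**Figure D1:**
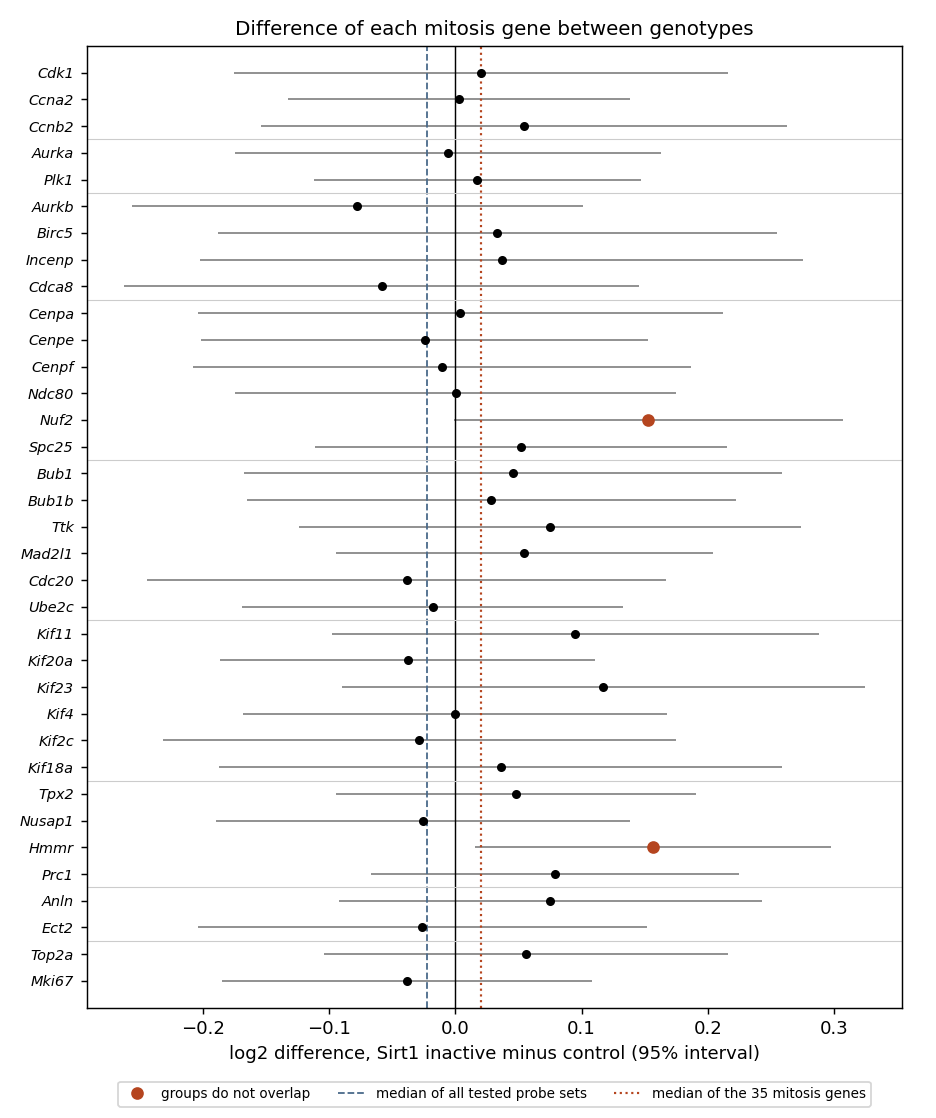
Log2 difference of each of the 35 mitosis genes, Sirt1 inactive minus control (x axis), with its 95% interval from limma over 3 and 3 arrays; grey lines part the roles. Dashed and dotted lines mark the medians of all tested probe sets (-0.022) and of the mitosis genes (0.020), and the larger points are Hmmr and Nuf2, whose groups do not overlap.

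Promoters of mitosis genes are known for CCAAT boxes, which bind NF-Y, and for the cell cycle homology region, TTTGAA or TTTAAA, through which the DREAM and MuvB complexes act. Windows of 250 bases before the gene start were taken from RefSeq promoters (GRCm38.p6), which held 31 of the 36 genes in 33 windows. Both strands were searched. The box CCAAT reads ATTGG on the other strand, the element TTTGAA then reads TTCAAA, and the variant TTTAAA is its own reverse complement. Overlapping matches were all counted. CCAAT stood in 75.8% of the mitosis gene windows, against 33.8% of all 32851 promoter windows, and at least 2 copies stood in 54.5% against 10.1%. TTTGAA or TTTAAA stood in 48.5% against 25.2%. Neighbouring CCAAT matches in one orientation with 30 to 36 bases between their first bases were found in 24.24% of the mitosis gene windows and 1.15% of all windows. These are matches of letters and were not tested as binding sites.

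Of the windows printed here, those of Cdk1 at chr10:69352913-69353162 (minus strand) and Ccnb2 at chr9:70421555-70421804 (minus strand) belong to the kinase and a cyclin that start mitosis. The window of Ttk at chr9:83834439-83834688 (plus strand) belongs to the gene closest to the mean of the others over the arrays. Those of Hmmr at chr11:40733438-40733687 (minus strand) and Nuf2 at chr1:169531465-169531714 (minus strand) belong to the genes with no overlap between the genotypes. Capitals mark matches of these motifs on either strand.
Cdk1 promoter: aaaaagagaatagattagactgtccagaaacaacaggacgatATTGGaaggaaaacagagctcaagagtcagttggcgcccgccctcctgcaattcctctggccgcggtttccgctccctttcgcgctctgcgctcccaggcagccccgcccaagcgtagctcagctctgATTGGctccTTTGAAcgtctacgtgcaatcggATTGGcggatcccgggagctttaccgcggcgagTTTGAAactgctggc
Ccnb2 promoter: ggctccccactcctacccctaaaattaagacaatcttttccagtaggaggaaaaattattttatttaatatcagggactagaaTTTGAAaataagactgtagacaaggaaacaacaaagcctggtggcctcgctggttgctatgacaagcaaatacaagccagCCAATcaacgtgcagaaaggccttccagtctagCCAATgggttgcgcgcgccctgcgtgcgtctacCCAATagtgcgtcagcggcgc
Ttk promoter: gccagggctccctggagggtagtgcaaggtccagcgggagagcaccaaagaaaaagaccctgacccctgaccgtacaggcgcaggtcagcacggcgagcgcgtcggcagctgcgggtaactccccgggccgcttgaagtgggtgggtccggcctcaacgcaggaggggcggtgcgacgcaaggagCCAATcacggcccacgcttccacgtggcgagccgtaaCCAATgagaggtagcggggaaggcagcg
Hmmr promoter: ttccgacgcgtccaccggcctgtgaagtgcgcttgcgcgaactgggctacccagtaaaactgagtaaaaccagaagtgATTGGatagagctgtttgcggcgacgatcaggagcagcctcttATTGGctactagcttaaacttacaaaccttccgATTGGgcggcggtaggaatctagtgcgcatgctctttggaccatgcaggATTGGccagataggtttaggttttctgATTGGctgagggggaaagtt
Nuf2 promoter: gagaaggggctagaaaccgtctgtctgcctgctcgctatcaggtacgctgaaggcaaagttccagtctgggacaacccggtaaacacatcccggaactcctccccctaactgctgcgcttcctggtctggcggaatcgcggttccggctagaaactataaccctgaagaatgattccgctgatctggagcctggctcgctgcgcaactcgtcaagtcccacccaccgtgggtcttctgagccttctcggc
Ccnb2 had 3 CCAAT matches, spaced by 33 bases each, and 1 of TTTGAA. Cdk1 had 3 matches in the form ATTGG and 2 of TTTGAA, the nearer of which began 15 bases before the start. Hmmr had 5 CCAAT matches and none of the other motifs, while Nuf2 had none of the 3 motifs in this window, so the pair with the largest differences did not share them.

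Among the mitotic kinase CDK1 and its cyclins, 3 of the 4 genes were measured. Cdk1 read 11.86, 12.08 and 11.97 in the Sirt1 inactive cultures and 11.84, 12.03 and 11.99 in the controls. The groups overlapped, with the lowest value in control replicate 1 and the highest in Sirt1 inactive replicate 2, and the difference was 0.020 (SE 0.083). Ccnb2, which encodes cyclin B2, read 11.74, 11.94 and 11.68 against 11.78, 11.79 and 11.62 in the controls. Its span of 0.31 over the arrays ran between Sirt1 inactive replicate 2 and control replicate 3, while the genotypes differed by 0.054 (SE 0.089). Ccna2, the cyclin A2 gene, spanned 0.084 over all arrays and differed by 0.0027.

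Plk1, the Polo-like kinase of spindle poles and kinetochores, had the narrowest span of the 35 genes. It read 11.28, 11.32 and 11.30 in the Sirt1 inactive cultures and 11.26, 11.27 and 11.32 in the controls, all within 0.065. The mean was 11.30 ± 0.02 against 11.28 ± 0.03 in the controls (SD, n = 3 each), and the 95% interval of the difference ran from -0.11 to 0.15. Aurka, whose kinase matures the centrosomes, differed by -0.0057 (SE 0.072), with its lowest value in control replicate 1 and its highest in control replicate 3.

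The chromosomal passenger complex corrects faulty attachments of chromosomes to microtubules. Of its 4 genes, Birc5 (survivin) and Incenp (its scaffold) were above 0 at 0.033 and 0.037, and Aurkb (its kinase) and Cdca8 (borealin) were below 0 at -0.078 and -0.058. Aurkb read 11.13, 11.24 and 11.30 in the Sirt1 inactive cultures and 11.20, 11.38 and 11.33 in the controls. It was lower in 3 of 3 same-numbered pairs, yet the groups overlapped and it did not pass (SE 0.076; limma, unadjusted p = 0.339, adjusted p = 0.959). Incenp read 9.54, 9.78 and 9.65 in the Sirt1 inactive cultures and 9.47, 9.60 and 9.79 in the controls. Its SD within the genotypes, 0.12 in Sirt1 inactive and 0.16 in control cultures, was larger than its difference of 0.037. The complex as a whole sat low in both cultures of number 1, by 0.11 in the Sirt1 inactive and 0.12 in the control culture below the mean of the arrays.

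Among 6 genes of the centromere and kinetochore, 4 were above 0 and 2 below. Nuf2, a subunit of the NDC80 complex that grips microtubules, read 9.75, 9.90 and 9.81 in the Sirt1 inactive cultures and 9.68, 9.71 and 9.62 in the controls. Every Sirt1 inactive value lay above every control value, as for 2.62% of all tested probe sets. The means were 9.82 ± 0.08 and 9.67 ± 0.05 (SD, n = 3 each), a difference of 0.15 (SE 0.065, 1.11-fold). Nuf2 did not pass (limma, unadjusted p = 0.0512, adjusted p = 0.959). With the replicate number as a block its unadjusted p was 0.0443 (limma), so that 2 of the 35 genes were under 0.05 in that fit, where 7.58% of all tested probe sets were; its adjusted p was 0.656.

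Nuf2 works in a complex with Ndc80 and Spc25, and those did not share its separation. Ndc80, which gives the complex its name, differed by 0.00024 (SE 0.074). Spc25, its inner subunit, differed by 0.052 (SE 0.069). Cenpa, the histone H3 variant that marks centromeres, differed by 0.0040, and its values ran between 10.67 in control replicate 1 and 10.98 in control replicate 3. Cenpe, the kinesin that moves chromosomes to the spindle equator, and Cenpf, an outer kinetochore protein, differed by -0.024 and -0.011. Both had their lowest value in control replicate 1 and their highest in control replicate 2.

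The checkpoint and anaphase genes were 6, with 4 above 0 and 2 below. Ttk, the kinase that starts checkpoint signalling, read 9.10, 9.33 and 9.12 in the Sirt1 inactive cultures and 9.02, 9.11 and 9.20 in the controls. Mad2l1, the inhibitor of CDC20, read 11.87, 11.97 and 11.81 against 11.81, 11.82 and 11.85 in the controls. For both genes Sirt1 inactive replicate 2 was the highest array and the groups overlapped. Their differences were 0.075 (SE 0.084) and 0.055 (SE 0.064). The checkpoint kinase genes Bub1 and Bub1b were at 0.045 and 0.029. Cdc20, which activates the anaphase-promoting complex, was at -0.039 and Ube2c, its ubiquitin-conjugating enzyme, at -0.018, and both were highest in control replicate 3.

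Of 6 kinesins of the spindle, 3 were above 0 and 3 below. Kif23, a motor of the centralspindlin complex, had the widest span of the 35 genes, 0.37. It read 10.35, 10.54 and 10.28 in the Sirt1 inactive cultures and 10.31, 10.34 and 10.17 in the controls. The highest and the lowest value came from Sirt1 inactive replicate 2 and control replicate 3. It was higher in 3 of 3 same-numbered pairs, with a difference of 0.12 (SE 0.088; limma, unadjusted p = 0.224, adjusted p = 0.959).

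Kif11, the motor that pushes the spindle poles apart, read 10.74, 10.80 and 10.78 in the Sirt1 inactive cultures and 10.52, 10.73 and 10.79 in the controls. Control replicate 1 stood alone below the other arrays, and the difference of 0.095 (SE 0.082) was 0.014 without it. Kif18a, which damps chromosome movements at the spindle equator, read 9.23, 9.34 and 9.24 against 9.09, 9.19 and 9.42 in the controls. The controls spanned the Sirt1 inactive values on both sides, and the difference was 0.036 (SE 0.095). Kif20a, a motor of cytokinesis, was at -0.038, Kif2c, which takes apart microtubule ends, at -0.029 and Kif4, a chromosome-bound motor, at -0.00035. All 3 were highest in control replicate 3.

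The spindle microtubule proteins held the gene with the largest difference. Hmmr, which encodes a spindle pole protein that is also a hyaluronan receptor, read 9.48, 9.51 and 9.40 in the Sirt1 inactive cultures and 9.30, 9.35 and 9.27 in the controls. The groups did not overlap, and Sirt1 inactive replicate 3 and control replicate 2 came closest to each other. The means were 9.46 ± 0.05 and 9.31 ± 0.04 (SD, n = 3 each), a difference of 0.16 (SE 0.060, 95% interval 0.016 to 0.30, 1.11-fold). Hmmr did not pass over all probe sets (limma, unadjusted p = 0.0339, adjusted p = 0.959). Hmmr and Nuf2 were the 2 genes without overlap, both in the direction higher. Over all tested probe sets the groups did not overlap in the direction higher for 2.62% and in the direction lower for 6.71%.

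Prc1, which bundles the microtubules of the central spindle, read 10.70, 10.76 and 10.65 in the Sirt1 inactive cultures and 10.68, 10.62 and 10.57 in the controls. Only control replicate 1 reached into the Sirt1 inactive values, and the difference was 0.079 (SE 0.062). Tpx2, the activator of Aurora A, was at 0.048, and Nusap1, which bundles microtubules near chromosomes, at -0.026. In cytokinesis, Anln, the anillin of the contractile ring, read 10.26, 10.43 and 10.28 against 10.22, 10.32 and 10.21 in the controls, a difference of 0.075 (SE 0.071). Ect2, which activates RhoA at the division plane, was at -0.026 (SE 0.076).

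Both markers of mitotic chromosomes overlapped between the genotypes. Top2a, the topoisomerase that untangles replicated DNA, read 11.02, 11.09 and 11.07 in the Sirt1 inactive cultures and 10.91, 11.10 and 11.004 in the controls. Its difference was 0.056 (SE 0.068), and a further, dim probe set of the gene, with values of 4.17 to 4.61, differed by 0.18 (SE 0.12). Mki67, which encodes the Ki-67 protein that coats mitotic chromosomes and is the usual histological marker of cycling cells, read 11.28, 11.34 and 11.34 against 11.28, 11.38 and 11.42 in the controls. It was lower in 3 of 3 same-numbered pairs, though by only -0.0017 in pair 1, and differed by -0.039 (SE 0.062, 95% interval -0.19 to 0.11).

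**Figure D2:**
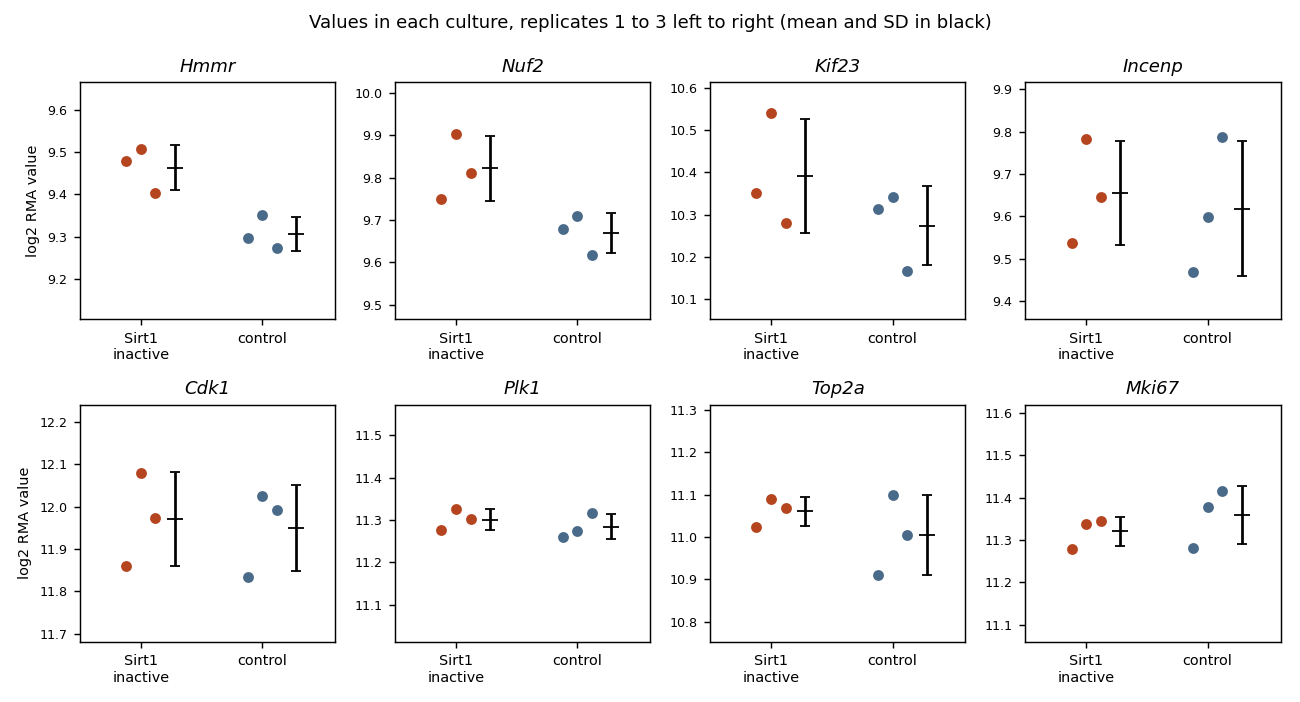
Log2 RMA value (y axis, the same span in each panel) of 8 mitosis genes in the 3 Sirt1 inactive and 3 control cultures, with mean and SD. Hmmr and Nuf2 have no overlap between the genotypes, and the other 6 genes do.

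Many genes shared the spread among the cultures. The median SD within a genotype was 0.062 in the Sirt1 inactive and 0.093 in the control cultures, beside a median difference of 0.020. For Hmmr, Nuf2 and Prc1 the difference was larger than either SD. Of the 35 genes, 16 had their highest value in Sirt1 inactive replicate 2 and 17 their lowest in control replicate 1. In Sirt1 inactive replicate 2, 30 of 35 lay above their own mean over the arrays, and in control replicate 1 it was 4 of 35. The median gene stood 0.076 above its mean in Sirt1 inactive replicate 2 and 0.075 below it in control replicate 1 (a deviation of -0.075), so these cultures of opposite genotype marked the ends. Sirt1 inactive replicate 1 and replicate 3 were at -0.028 and -0.0085, control replicate 2 was at -0.012 and control replicate 3 at 0.051. Over all tested probe sets the same medians lay between -0.017 and 0.045. The counts per array were not made over all tested probe sets, so they do not set the mitosis genes apart.

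**Figure D3:**
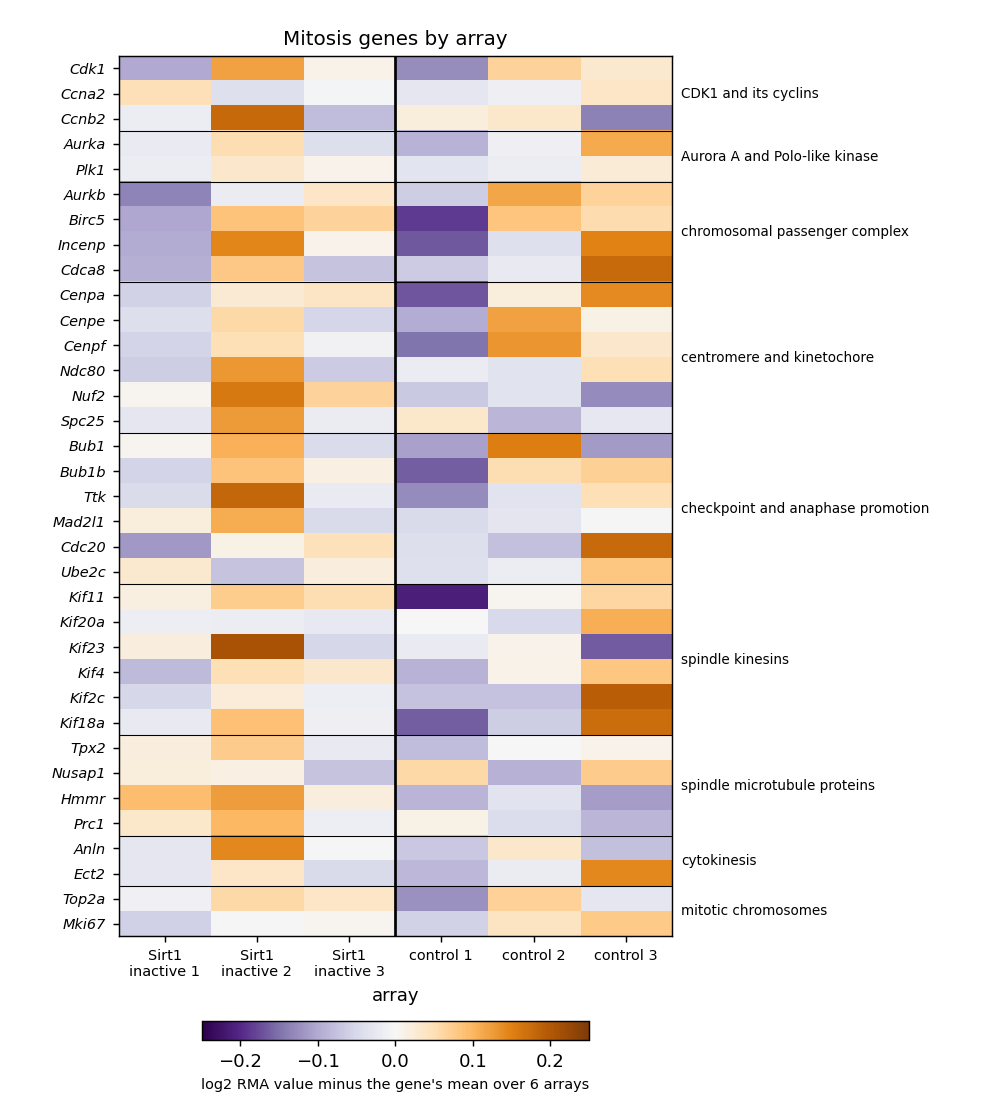
Each of the 35 mitosis genes (rows, by role) on each array (columns), coloured by its log2 RMA value minus the mean of that gene over the 6 arrays. Sirt1 inactive 2 is mostly above the mean (30 of 35 genes) and control 1 mostly below it (4 of 35 genes above), and control 3 is mostly above (25 of 35 genes).

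Control replicate 3 was mostly high as well, with 25 of 35 genes above their mean. It held the highest value for 13 of them, among them Aurka, Incenp, Cdca8, Cenpa, Cdc20, Kif2c, Kif18a and Ect2, and the lowest for 7, which were Ccnb2, Nuf2, Bub1, Kif23, Hmmr, Prc1 and Anln. Across genes, the pairwise Pearson correlation over the 6 arrays had a median of 0.42, and 77% of the 595 pairs were above 0. With group means removed the median was 0.42 as well. The arrays are shared by all pairs, so these correlations are a description, and they were computed for the mitosis genes only. Set against the mean of the other 34 genes, Ttk (0.96), Incenp (0.94), Bub1b (0.93) and Cdk1 (0.90) followed most closely, while Nusap1 (-0.093), Ccna2 (-0.076) and Ube2c (-0.065) did not follow.

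Same-numbered cultures of the genotypes shared deviations over the whole array, so the genes were also read pair by pair. In pair 1, 26 of 35 genes were higher in the Sirt1 inactive culture, with a median of 0.058. In pair 2 it was 27 of 35, with a median of 0.069. In pair 3 it was 10 of 35, with a median of -0.045. Over all tested probe sets the shares above 0 were 45.7%, 47.6% and 37.4% in pairs 1, 2 and 3. The 6 genes higher in 3 of 3 pairs were Birc5, Nuf2, Kif23, Hmmr, Prc1 and Anln, while Aurkb and Mki67 were lower in 3 of 3. Over all tested probe sets 10.9% were higher in 3 of 3 pairs and 20.7% lower.

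**Figure D4:**
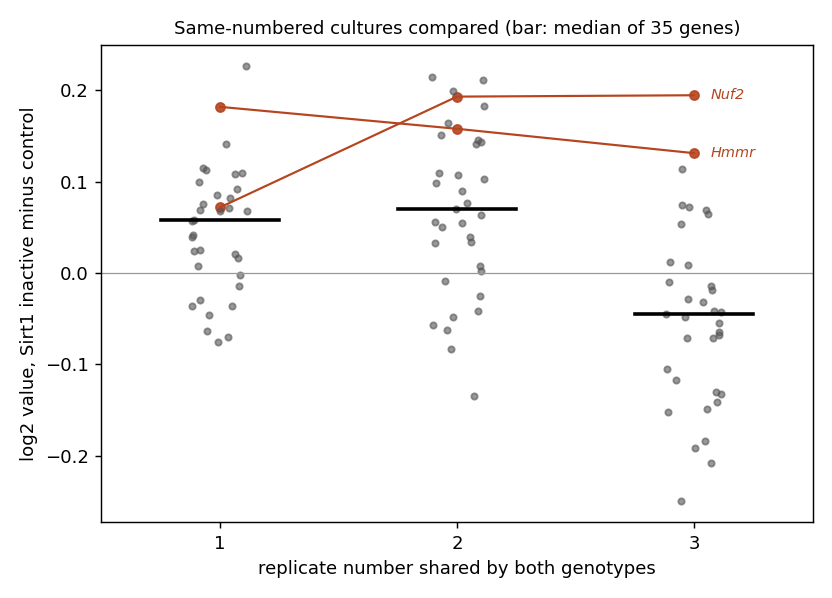
Difference of each of the 35 mitosis genes between the Sirt1 inactive and the control culture of the same replicate number (y axis, log2). Bars are medians, at 0.058, 0.069 and -0.045, and lines join Hmmr and Nuf2, which are above 0 in each pair.

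A further 90 genes of mitosis, listed by role, were read in the same way, and 89 had a probe set. Of these 53 were above 0 and 36 below, with a median difference of 0.024, where 39.9% of all tested probe sets were above 0. Over all probe sets 0 passed, and 0 had an unadjusted p under 0.05 (limma), beside 3.61% of all tested probe sets. The groups did not overlap for 4 genes in the direction higher and 2 lower. Of all tested probe sets this held for 2.62% and 6.71%. The smallest p belonged to Sgo1, the shugoshin that guards sister chromatid cohesion (0.15, limma, unadjusted p = 0.0684). Next were Cenpi, a centromere subunit (0.18), Knl1, the kinetochore platform for checkpoint kinases (0.17), Septin7, a filament protein of the division site (0.15), Lin9, a MuvB subunit (0.14), and Zwilch, of the complex that brings dynein to kinetochores (0.16). Sgo1 read 9.56, 9.72 and 9.53 in the Sirt1 inactive cultures and 9.50, 9.44 and 9.42 in the controls, with no overlap. Knl1, which stands beside the NDC80 complex, read 9.95, 10.20 and 10.004 against 9.79, 9.95 and 9.92 in the controls. The lowest Sirt1 inactive value lay just above the highest control value. Cenpi read 8.62, 8.88 and 8.68 in the Sirt1 inactive cultures and 8.51, 8.63 and 8.50 in the controls, and Sirt1 inactive replicate 1 lay below control replicate 2. Septin7 read 11.85, 11.71 and 11.78 in the Sirt1 inactive cultures and 11.72, 11.66 and 11.51 in the controls. Lin9 read 8.61, 8.76 and 8.69 against 8.48, 8.53 and 8.64 in the controls, and Zwilch 9.76, 9.84 and 9.65 against 9.63, 9.68 and 9.47 in the controls. In Septin7, Lin9 and Zwilch alike, 1 Sirt1 inactive value lay below the highest control value.

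The transcription factor genes Foxm1 and Mybl2 drive this programme in G2. Foxm1 read 9.95, 9.91 and 9.998 in the Sirt1 inactive cultures and 9.999, 10.02 and 10.30 in the controls. The groups all but touched without overlap, control replicate 3 stood apart from the rest, and the difference of -0.15 (SE 0.091) did not pass (limma, unadjusted p = 0.137, adjusted p = 0.959). Mybl2 read 9.72, 9.64 and 9.66 against 9.54, 9.59 and 9.81 in the controls, which spanned the Sirt1 inactive values, and differed by 0.024 (SE 0.082). The condensins had 5 of 8 genes above 0 and the anaphase-promoting genes 3 of 9. The further centromere and kinetochore genes had 20 of 31 above 0, with a median of 0.034.

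**Figure D5:**
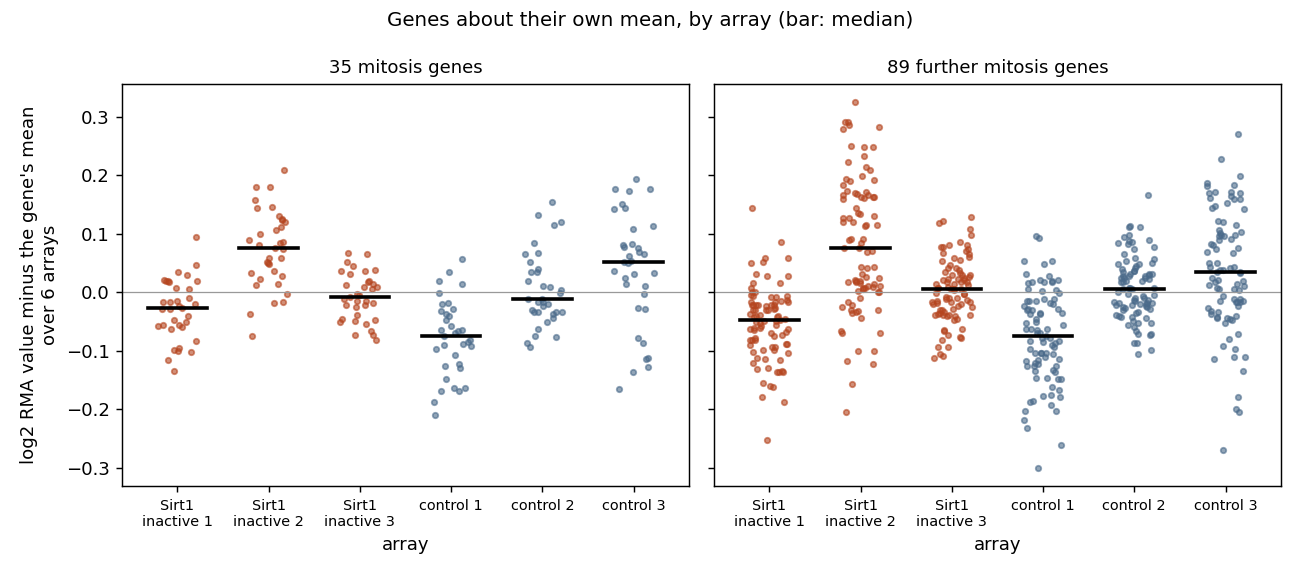
Log2 RMA value minus the mean of the same gene over the 6 arrays (y axis) for the 35 mitosis genes and for the 89 further mitosis genes; each point is a gene and bars are medians. In both panels Sirt1 inactive 2 has the highest median (0.076 and 0.076) and control 1 the lowest (-0.075 and -0.075).

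By their medians, the 89 further genes, none of them in the list of 36, had the same cultures at the ends. By count the low end differed. Of these genes, 70 lay above their mean in Sirt1 inactive replicate 2, 17 in control replicate 1 and only 12 in Sirt1 inactive replicate 1. Markers of cell types were read beside them. Of 9 measured neuroblast and neuron markers 9 were below 0, where 60.1% of all tested probe sets were, with mean levels of 8.29 to 8.59 in the Sirt1 inactive cultures and 8.61 to 8.94 in the controls, highest in control replicate 3. An unadjusted p under 0.05 (limma) in the direction lower was found for 3 of the 9, and for 2.63% of all tested probe sets. Of these markers Syt1, of synaptic vesicles, had the smallest p at -0.39 (limma, unadjusted p = 0.0324, adjusted p = 0.959). The oligodendrocyte progenitor markers had 3 of 6 above 0, with levels of 9.85 to 10.04 against 9.61 to 9.71 in the controls, 3 of them higher at an unadjusted p under 0.05 (limma; 0.984% of all tested probe sets) and the receptor gene Gpr17 at 0.75. Astrocyte markers had 6 of 8 above 0 (10.12 to 10.21 against 9.49 to 10.17, the lowest in control replicate 3), with the aldolase gene Aldoc at 0.27. Neural stem cell markers had 4 of 7 above 0 (10.04 to 10.16 against 10.01 to 10.11), with Nr2e1, a nuclear receptor of stem cells, at 0.18. Like the mitosis genes, these were on average highest in Sirt1 inactive replicate 2 and lowest in control replicate 1, at 0.093 and -0.059 from their means. Microglia markers had 0 of 6 above 0 (6.65 to 6.68 against 6.72 to 6.82), with Tmem119 at -0.19, and endothelial and mural markers 1 of 6 (7.05 to 7.16 against 7.06 to 7.26), with Cdh5 at -0.15. The mean levels of both lists lay below the array medians (7.36 to 7.39), so these are dim values. Of all tested probe sets 39.9% were above 0, and without dim probe sets 48.6%. The part of these cell types in the mitosis gene values was not tested. Of 7 listed inhibitors of cyclin-dependent kinases 6 were measured, and 1 of these was above 0, with a median of -0.046. At an unadjusted p under 0.05 (limma) there were 0. Of all tested probe sets 39.9% were above 0 and 3.61% had such a p.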

How the data were processed

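The authors deposited log2 expression values, 1 whole-transcript Affymetrix array for each sample, and the submitters' processing notes name RMA, which adjusts background, normalizes between arrays and summarises probes. The log2 scale was read from the values (3.02 to 13.6). Neither the RMA version nor the probes' genome build was given in the sources used here. Of 34760 probe sets, 22961 with at least 1 annotated gene (21640 with 1 gene, 1321 with several) were tested. The table held 0 columns of other samples.

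Differences are Sirt1 inactive minus control, fitted over 6 arrays with limma 3.58.1 in R 4.3.3 with genotype as the only term. P-values are two-sided. They were adjusted by Benjamini and Hochberg's method across these probe sets, and 0.05 was the threshold. The fit was tested on simulated data, but no outcome is given here, so nothing about the mitosis genes is concluded from that test. Arrays have no read depth, and their number limits precision: the median SE was 0.075 for the mitosis genes and 0.080 for all tested probe sets. Whether samples came from separate mice is not stated, so p-values measure the spread between these samples. An exact permutation test of 3 against 3 cannot go below p = 0.1 and was not used.

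The labels do not say that a shared replicate number marks a shared litter or day. Same-numbered samples were read as pairs because of these same values: deviations from the group means correlated at 0.47, 0.36 and 0.27 for same-numbered pairs, while other pairs lay between -0.32 and -0.022. The block was an alternative fit, and SEs, intervals and p-values are from the fit without it unless the block is named. The genes, the 22 role and marker lists and the rule for named genes were chosen with earlier results of these data known. Per-array values are given for Sirt1, the 10 genes with the smallest p, those without overlap, 5 fixed genes (Ccnb1 not measured), the 4 with the widest span, and, of the further mitosis genes, the 6 with the smallest p, Foxm1 and Mybl2. Of each cell list the gene with the smallest p is named. Those of Nes and Sox2 were chosen after their values were seen.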

Additional observations from a re-analysis of the deposited data

How the results depend on the processing

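The fit was repeated under 16 alternatives, and 0 of 35 mitosis genes passed in any of them (smallest limma adjusted p 0.56). Of the 35 genes, 14 kept their sign throughout, 12 above 0 and 2 below, and 21 turned at least once. The replicate block, an intensity trend in the variance and other sets of tested probe sets left every difference as it was. These alternatives could not turn a sign, and averaging probe sets could change Top2a alone. How many of all tested probe sets kept their sign was not counted. The number of mitosis genes above 0, 22, ranged from 14 to 31 without 1 culture, beside 38.5% to 46.3% of all tested probe sets. It was 32 with both cultures of number 3 left out and the replicate block kept, beside 45.9%. In that fit 19 of 22961 probe sets passed, none of them among the 35, and the other alternatives gave 0. That fit has few arrays for its terms, so its p-values rest largely on variance pooled over all probe sets. What made the 19 pass was not tested. The median difference of the mitosis genes, 0.020, ranged from -0.037 to 0.051 without 1 culture. The count at an unadjusted p under 0.05 (limma) was 1 gene, beside 3.61% of all tested probe sets. This count was 2 with the replicate block (beside 7.58%) and with array medians subtracted (3.28%). It was also 2 after a renewed quantile normalization (3.43%) and without dim probe sets (2.72% of those left). With several probe sets of a gene averaged it was 2 as well, beside 3.496% of 19937 genes. It was 0 with array weights (5.42%) and 0 to 1 without 1 culture (1.99% to 6.33%). Whether these counts differ from the shares beside them was not tested. Slide and scan date are not in the files used here. With the replicate block 0 probe sets passed, as without it (smallest limma adjusted p 0.51). Over all tested probe sets, 830 had an unadjusted p under 0.05, 1741 with the block, and 456 to 1453 without 1 culture.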
